A study of Mus musculus with 22 samples.

Results

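The genes described here are 6 genes of major histocompatibility complex (MHC) class II antigen presentation, H2-Aa, H2-Ab1, H2-Eb1, H2-DMa, Cd74 and Ciita, out of 998 genes counted in single cells of mouse embryo sections. They were chosen by name with earlier results of these same data known: H2-Aa and H2-DMa were selected on measured values, which the rule does not state, and the other 4 were added as genes of the same pathway that the tables hold. For that reason the values of H2-Aa and H2-DMa are given as descriptions with no test, and so are all co-detection ratios. Transcripts were counted by CosMx, an imaging method in which barcoded probes are hybridized to RNA in a tissue section and read out spot by spot. The 22 sections, each 10 µm thick, were cut from 2 embryos at E10 and span the region of the aorta, gonads and mesonephros. The labels give 13 sections as Knockout, from 1 Nr4a1-/-Nr4a2-/- embryo with germline loss of both nuclear receptor genes, and 9 as Wildtype, from 1 Nr4a1+/+Nr4a2+/+ embryo. Both mutant lines had been bred back to C57BL/6J, and the labels name no agent given to either embryo. Sections of a genotype share an embryo, so every p-value below measures the spread between sections and a difference between genotypes cannot be told apart from a difference between 2 embryos. The study's text and the labels give different numbers of sections for each genotype, and the labels, which also name both paraffin embedding and fresh freezing, were followed for the groups.

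MHC class II molecules carry peptides from the endocytic pathway to the cell surface, where helper T cells read them. H2-Aa and H2-Ab1 encode the alpha and beta chains of the I-A molecule, and H2-Eb1 encodes the beta chain of I-E. Cd74 is the invariant chain, which fills the groove of new class II molecules and guides them to endosomes, and H2-DMa is a chain of the H2-M molecule, which exchanges the remnant of Cd74 for peptide. Ciita is the coactivator that switches these genes on together, in dendritic cells, B cells and activated macrophages of the adult. In the early embryo, before lymphocytes have formed, few cells are known to carry class II molecules.

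The table of RefSeq promoters (GRCm38.p6) held entries for 3 of the 6 members, H2-Aa, H2-Eb1 and H2-DMa. Class II promoters are known for a Y box, a binding site of NF-Y, which Ciita depends on. The letters GATTGG, searched on both strands (CCAATC on the other), occurred in 5292 of 32851 promoter windows (16.1%). The window of H2-Aa held 1 match and that of H2-Eb1 held 2, and 1 of the 2 windows listed for H2-DMa held a match. The stretches of 120 bases before the start site are shown because class II promoters are where Ciita, another member, acts, and its co-detection with both genes is given further on. Capitals mark the matches, which are a description of letters and not of binding. The H2-Aa stretch lies at chr17:34287824-34287943 on the minus strand and the H2-Eb1 stretch at chr17:34305747-34305866 on the plus strand.
H2-Aa: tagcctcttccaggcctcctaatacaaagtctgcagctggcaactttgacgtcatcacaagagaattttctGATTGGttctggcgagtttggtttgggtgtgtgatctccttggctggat
H2-Eb1: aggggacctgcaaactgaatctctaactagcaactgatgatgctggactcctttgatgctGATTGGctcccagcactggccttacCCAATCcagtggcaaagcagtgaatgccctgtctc

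Of 37575 cells, 37570 held at least 10 transcripts and 10 genes and were kept. A section held from 814 to 3430 cells and a total count from 169027 to 887896, and the median count per cell ranged from 87 to 332 over the Knockout sections and from 171 to 224 over the Wildtype sections. Counts of a member in a section ranged from 31 transcripts (H2-DMa) to 636 (H2-Ab1). The targeted genes did not separate the labels: Nr4a1 had a log2 fold change of -0.05 ± 0.07 (SE, adjusted p = 0.716, edgeR) and Nr4a2 of 0.03 ± 0.09 (adjusted p = 0.860). Nr4a1 ranked 20 from the dimmest of 998 genes, and where its probes lie relative to the deleted part was not given, so these values do not check the labels.

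H2-Aa was counted at a rate under the lower quartile of the panel, and the other 5 members lay between the panel's quartiles of 4.56 and 8.22. A rate here is the number of transcripts of a gene per 10000 transcripts of the section. The 50 dimmest genes, members left out, had a mean rate of 2.51 ± 0.27 (SD, n = 22 sections), and the median panel gene had 5.81. H2-Aa, the I-A alpha chain, was the dimmest member at 4.07 ± 0.92, and brighter than 15.2% of the panel. H2-Eb1 had 4.67 ± 0.82, H2-DMa 5.16 ± 1.27 and Ciita 5.62 ± 1.37. Cd74 and H2-Ab1, at 6.11 ± 1.56 and 6.84 ± 0.98, were above the panel median, and H2-Ab1 was brighter than 63.9% of the panel. Probe efficiency differs between genes, so the order of the members is an order of counts and not of transcript numbers. The genes next to each member in rate were Tlr8 and Srebf1 for H2-Aa, Cd36 and Ahr for H2-Eb1, Ica1 and Ccl9 for H2-DMa, Hey1 and Tgfb3 for Ciita, Efna1 and Oas3 for Cd74, and Msmb and Coro1b for H2-Ab1, and none of these 12 belongs to the class II pathway.

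Set against the dimmest 50 genes of the same section, H2-Aa had a ratio of 1.61 ± 0.29 (SD, n = 22), from 0.893 to 2.10, and exceeded that set in 21 sections. The ratio of H2-DMa was 2.03 ± 0.36, from 0.846 to 2.73, again above 1 in 21 sections. H2-Eb1 had 1.86 ± 0.28, Ciita 2.21 ± 0.35, Cd74 2.41 ± 0.47 and H2-Ab1 2.72 ± 0.26. The same ratio for the median panel gene was 2.31. A ratio above 1 is therefore what most panel genes had, and only H2-Ab1 and Cd74 lay above the median gene. The median ratio over the 6 members, averaged over sections, was 2.14 ± 0.23 (SD) against the dimmest 5%, 3.31 against the dimmest 1% and 1.81 against the dimmest 10%.

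**Figure D1:**
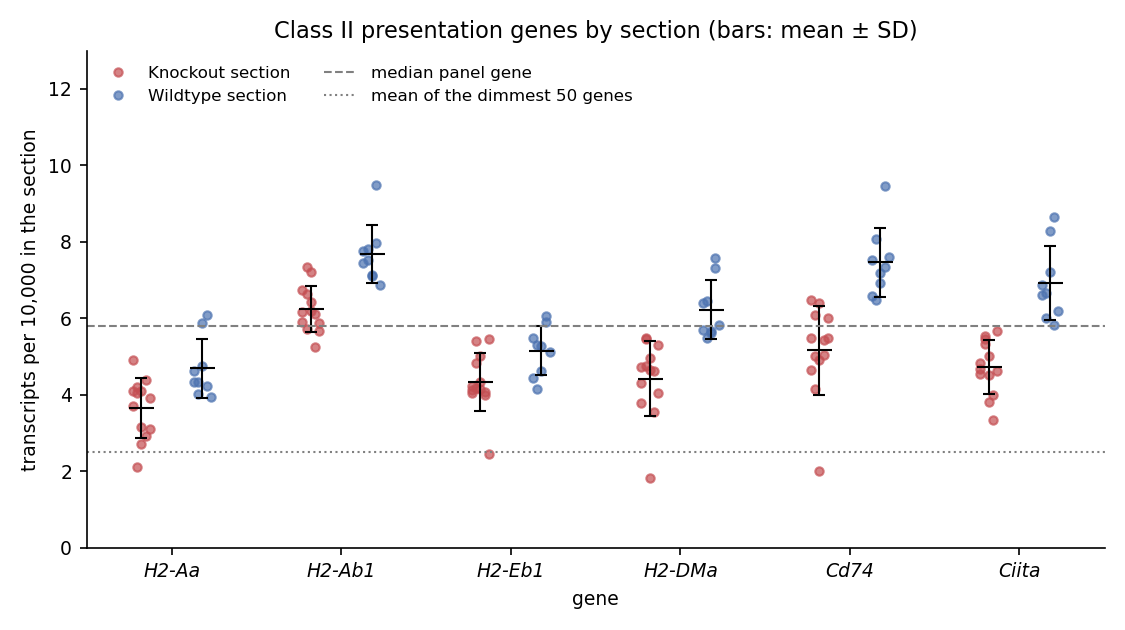
Transcripts of each member per 10,000 transcripts (y axis) in every section (points; red Knockout, 13 sections; blue Wildtype, 9 sections), with black bars for the mean ± SD, a dashed line at the median panel gene (5.81) and a dotted line at the mean of the 50 dimmest genes (2.51). Points of the 2 labels do not overlap for H2-DMa, Cd74 and Ciita and overlap for the other 3.

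A transcript of H2-Aa was found in 2825 cells (7.52%), of H2-Eb1 in 3485, of H2-DMa in 3689, of Ciita in 3994, of Cd74 in 4290 and of H2-Ab1 in 4646 (12.4%). Most of these cells held a single transcript: 1965 of the cells with H2-Aa and 3166 of those with H2-Ab1 had 1, and the highest count in a cell was 8, for H2-DMa. After each cell was thinned to 100 transcripts, which left out 6940 Knockout and 5067 Wildtype cells that were shallower, H2-Aa was found in 3.24% ± 0.66 (SD) of cells in the 13 Knockout sections and in 4.14% ± 0.59 in the 9 Wildtype sections, against 7.0% ± 1.8 and 8.54% ± 1.22 before thinning. Thinned shares of Cd74 were 4.67% ± 0.93 and 6.55% ± 0.64, against 9.90% ± 2.92 and 13.6% ± 1.34 before. Cells with 3 or more transcripts numbered from 162 (H2-Eb1) to 391 (H2-Ab1).

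Members of the H2 locus were found together in the same cells more often than their totals predicted, with ratios from 1.15 to 1.30, while Cd74 and Ciita had ratios from 1.03 to 1.10 with them. The ratio used here divides the number of cells with both genes by the number expected within 10 strata of cells of like total count in the same section. H2-Aa and H2-Ab1, the 2 chains of I-A, met in 777 cells against 598 expected, a ratio of 1.30. Over single sections this ratio had a median of 1.30, from 0.849 to 2.12, and was above 1 in 21 of 22. H2-Aa with H2-DMa gave 1.30 (625 cells), H2-Ab1 with H2-DMa 1.27 (979 cells), H2-Eb1 with H2-DMa 1.21, H2-Aa with H2-Eb1 1.20 and H2-Ab1 with H2-Eb1 1.15. Cd74, the partner of all class II chains in the cell, had ratios of 1.07 with H2-Aa, 1.06 with H2-Ab1, 1.07 with H2-Eb1 and 1.10 with H2-DMa. Ciita, the coactivator of the others, had 1.03 with H2-Aa, 1.05 with H2-Ab1, H2-Eb1 and H2-DMa, and 1.05 with Cd74. All 4 H2 members were found in 63 cells, 3 in 537, 2 in 2513 and 1 in 7756.

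The higher of these ratios were those between members of the same chromosome. H2-Aa, H2-Ab1, H2-Eb1 and H2-DMa lie close together on chromosome 17, Cd74 lies on chromosome 18 and Ciita on chromosome 16. Among the H2 members the ratios did not follow distance. H2-Aa had 1.20 with H2-Eb1, 1 panel gene away, and 1.30 with H2-DMa, 7 away. Cd74 with H2-DMa, at 1.102, lay above the 95th percentile of partners on other chromosomes for Cd74 (1.098) and for H2-DMa (1.094). The other member pairs across chromosomes did not exceed theirs. Each panel gene was placed on its chromosome through the RefSeq gene table (GRCm38.p6), used only for chromosome and order, which matched 991 of 998 names. This comparison was chosen after the highest partners had been seen. For H2-Aa the 20 partners with the highest ratio were all genes of chromosome 17, where 6.32% of its 997 partners lie. The count was also 20 of 20 for H2-Ab1 and H2-DMa, 19 of 20 for H2-Eb1 and Ciita, and 18 of 20 for Cd74, whose chromosome holds 2.21% of its partners.

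The leading partners included genes outside the pathway. H2-Aa led with Tap1 (1.35), Tap2 (1.33) and H2-K1 (1.33), which serve class I presentation, and H2-Ob (1.34), a class II chain that restrains H2-M. Among its 20 highest partners were also Hspa1a, a heat shock chaperone (1.32), Mapk13, a stress kinase (1.32), Tnxb, a matrix protein (1.31), and Thbs2, a thrombospondin (1.31). H2-Ab1 led with H2-Aa, H2-Ob (1.29) and H2-DMa, and H2-DMa led with H2-Ob (1.32), Tap1 (1.32) and H2-K1 (1.30), with the mast cell tryptase Tpsab1 at 1.29. H2-Eb1 led with Ptgdr2 (1.24), its exception on another chromosome, then Tnf (1.23) and Fpr1, a formyl peptide receptor (1.21). Cd74 led with Csf1r, the macrophage growth factor receptor (1.32), then Camk2a, a neuronal kinase (1.29), and Mzb1, a plasma cell protein (1.27). Ciita led with Tnfrsf17, a plasma cell receptor and its neighbour on the panel (1.36), then Apod, a lipocalin (1.28), and Cd200r3 (1.27), with Myh11, smooth muscle myosin, next at 1.27. These partners are known from lineages as different as neurons, mast cells, plasma cells and smooth muscle.

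Over the 10 nearest panel genes on its chromosome, H2-Aa had a median ratio of 1.30 (1.20 to 1.35), over the other 53 genes of the chromosome 1.19, and over 927 genes of other chromosomes 1.03. The medians were 1.29, 1.17 and 1.03 for H2-DMa, 1.23, 1.16 and 1.03 for H2-Ab1, and 1.18, 1.12 and 1.03 for H2-Eb1. For Cd74 they were 1.21, 1.19 and 1.04, and for Ciita 1.19, 1.15 and 1.03. In every one of the 22 sections the median over the nearest 10 lay above the median over other chromosomes, for each of the 6 members. For H2-Aa the section values averaged 1.31 ± 0.09 (SD) over the Knockout and 1.29 ± 0.07 over the Wildtype sections for the nearest genes, and 1.03 ± 0.03 and 1.02 ± 0.02 for other chromosomes.

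The pattern was shared by the panel. Of 991 genes that could be placed, 989 (99.8%) had a higher median ratio with their 10 nearest neighbours than with genes of other chromosomes, and the median difference was 0.148. H2-Aa, at 0.268, had a larger difference than 99.4% of these genes, H2-DMa, at 0.263, than 99.1%, and H2-Ab1, at 0.208, than 89.3%. Cd74 (0.176), Ciita (0.155) and H2-Eb1 (0.148) were closer to the middle. For the H2 members the 10 nearest are mostly genes of antigen presentation, so their differences are not of place alone. The ratios among the 4 H2 members (median 1.24) thus lay within the range of their other neighbours on chromosome 17, whether or not those belong to the class II pathway. The cause of this pattern was not tested. Which share of the counts of a gene this dim are transcripts of that gene was not measured either, so the rates and shares given here for the members are counts assigned to their names.

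**Figure D2:**
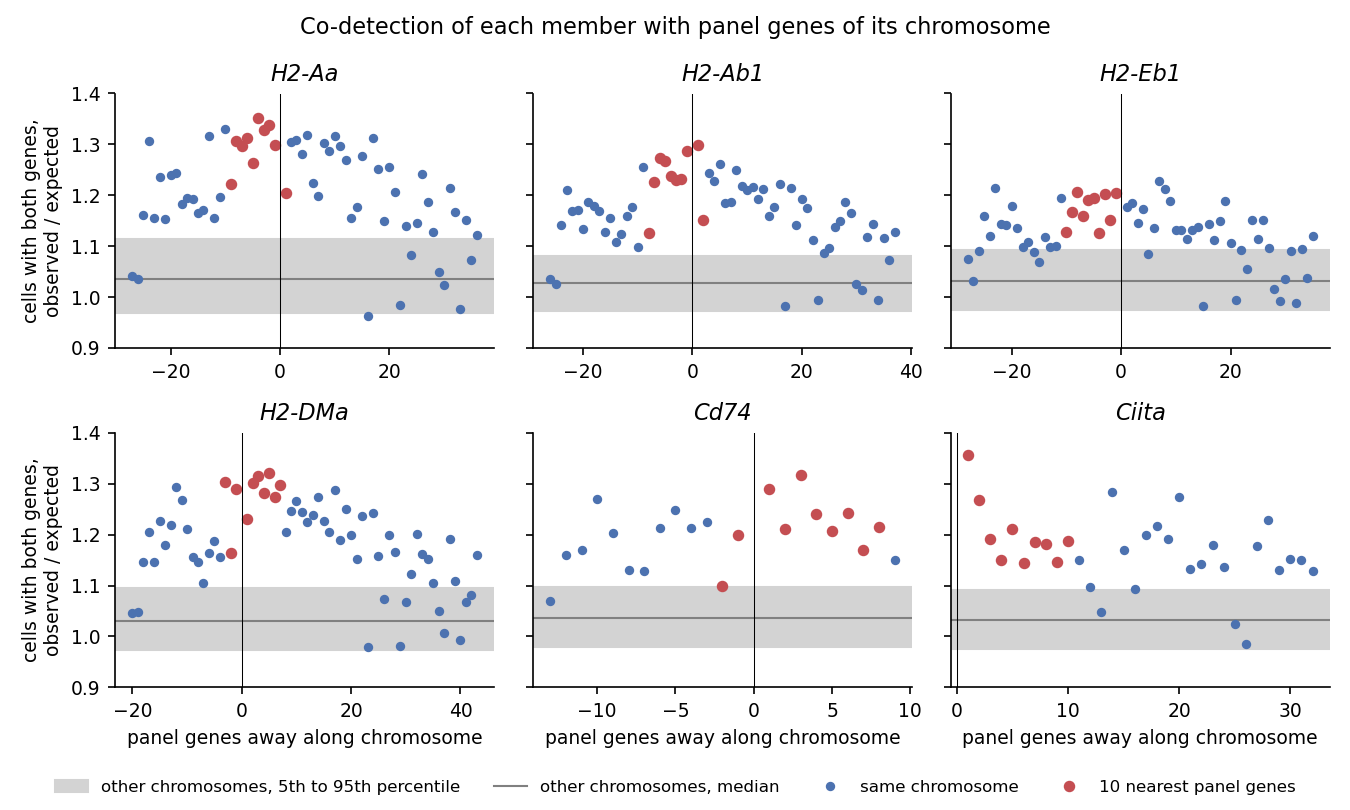
Co-detection ratio (y axis, cells with both genes over cells expected) of each member with the panel genes of its chromosome, by how many panel genes away they lie (x axis); red points are the 10 nearest, blue points the rest, and the grey line and band are the median and the 5th to 95th percentile of genes on other chromosomes. The 10 nearest genes lie above the grey band for each of the 6 members, and the highest point of Ciita is its closest neighbour (1.36).

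Markers of macrophages, which can present antigen and are present in the E10 embryo, followed the same order. Of 12 macrophage genes chosen from the panel, which holds others, 11 lie on other chromosomes than the H2 members. With H2-Aa these 11 had ratios from 0.970 (C1qc, a complement chain) to 1.09 (C1qb). The range was 1.01 to 1.10 for H2-Ab1, 0.978 to 1.12 for H2-Eb1 and 1.01 to 1.08 for H2-DMa. The remaining marker, Aif1, lies on chromosome 17 and had 1.22 with H2-Aa, 1.19 with H2-Ab1 and 1.24 with H2-DMa, but 1.08 with H2-Eb1. With Cd74, Aif1 had 1.01, the lowest of the 12, and Csf1r, on the chromosome of Cd74, had 1.32, while the other 11 ran from 1.01 to 1.09. Ciita shares its chromosome with none of the 12, and its ratios ran from 1.02 to 1.12 (Tyrobp, an adaptor of myeloid receptors).

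**Figure D3:**
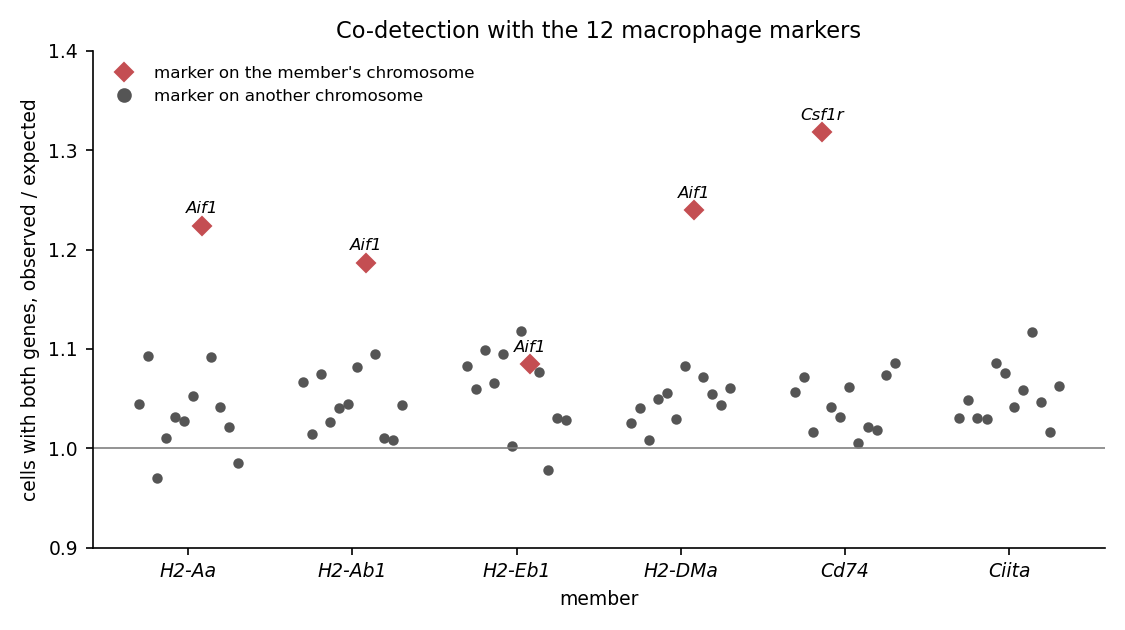
Co-detection ratio (y axis) of each member (x axis) with 12 macrophage markers; red diamonds are markers on the chromosome of the member, named, and grey points are markers on other chromosomes. Csf1r stands above the other markers for Cd74, and Aif1 for H2-Aa, H2-Ab1 and H2-DMa but not for H2-Eb1.

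Cells were next grouped by markers, with a cell assigned to a group when it held at least 4 transcripts of the group's markers in all, from at least 2 of these genes, and at least 3-fold more than the share of these markers in its section predicted. This gave 651 macrophage-gated cells, 1304 erythroid, 1119 endothelial, 684 smooth muscle, 494 cardiac muscle, 891 epithelial, 1019 of sclerotome-type mesenchyme and 681 neural, with 29839 ungated and 888 in more than 1 gate. Markers not used by the gate supported the endothelial group (Kdr 3.71-fold over ungated cells, Vwf 2.66-fold) and the erythroid group (Epor 4.64-fold). They supported the macrophage group little: Cd68 was 1.12-fold, Aif1 1.39-fold, Tyrobp 1.22-fold, Fcer1g 1.33-fold, Cd163 1.09-fold and Mertk 1.18-fold over ungated cells, so the group is called macrophage-gated and not macrophages.

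The highest and lowest group of a member differed in mean level, with a wide spread over sections. Rates here leave out the gate markers and are averaged over sections with at least 10 cells of the group. Cd74 ran from 5.16 ± 3.74 transcripts per 10000 (SD, n = 22 sections) in smooth muscle to 9.10 ± 4.06 (n = 21) in macrophage-gated cells, where single sections lay between 0 and 15.1. Its mean was 8.52 ± 3.66 in erythroid-gated and 6.31 ± 1.64 in ungated cells. Ciita was highest in erythroid-gated cells at 8.13 ± 4.24, then macrophage-gated at 7.54 ± 3.80, with 5.69 ± 1.37 in ungated cells. H2-Ab1 had 8.97 ± 5.16 in neural and 8.88 ± 2.65 in erythroid-gated cells and 6.62 ± 2.47 in macrophage-gated cells, below the 7.25 ± 1.13 of ungated cells. H2-Eb1 ranged from 4.18 ± 2.04 in smooth muscle to 6.42 ± 2.84 in erythroid-gated cells. H2-Aa ranged from 3.87 ± 2.19 in endothelial to 6.11 ± 2.63 in erythroid-gated cells, and H2-DMa from 4.16 ± 2.01 in endothelial to 6.60 ± 4.36 in neural cells. Groups next to each other in these orders, which are close because the means were sorted, differed by less than 1 SD of their difference over sections in all 48 pairs, and the ends of the orders were not tested against each other.

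Red cells and their precursors are not known to present antigen by class II, and their shares are set beside those of macrophage-gated cells. Macrophage-gated cells had a median of 382 transcripts and erythroid-gated cells of 388, but in the latter the hemoglobin gene Hba-a1/2 took 1820.4 of 10000 transcripts, which leaves fewer for other genes. Cd74 was found in 23.7% of macrophage-gated and 20.1% of erythroid-gated cells, Ciita in 20.7% and 19.9%, H2-DMa in 17.4% and 15.9%, H2-Eb1 in 14.9% and 15.3%, H2-Ab1 in 18.3% and 20.6% and H2-Aa in 12.7% and 13.96%. For H2-Aa, H2-Ab1 and H2-Eb1 the macrophage-gated share was below the erythroid one. These 3 shares are not read as expression, no background level was measured, and the part of background in the other 3 was not tested. Smooth muscle (median 467 transcripts), cardiac muscle (430) and neural cells (397) were also deeper than macrophage-gated cells. H2-DMa was found in 18.6%, 17.8% and 17.6% of them, above the macrophage-gated 17.4%. Ciita was found in 22.2% of smooth muscle cells, above the macrophage-gated 20.7%, but was below it in cardiac muscle and neural cells. Cd74 was below its macrophage-gated 23.7% in each, with 22.7% in cardiac muscle. These differences were not tested.

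**Figure D4:**
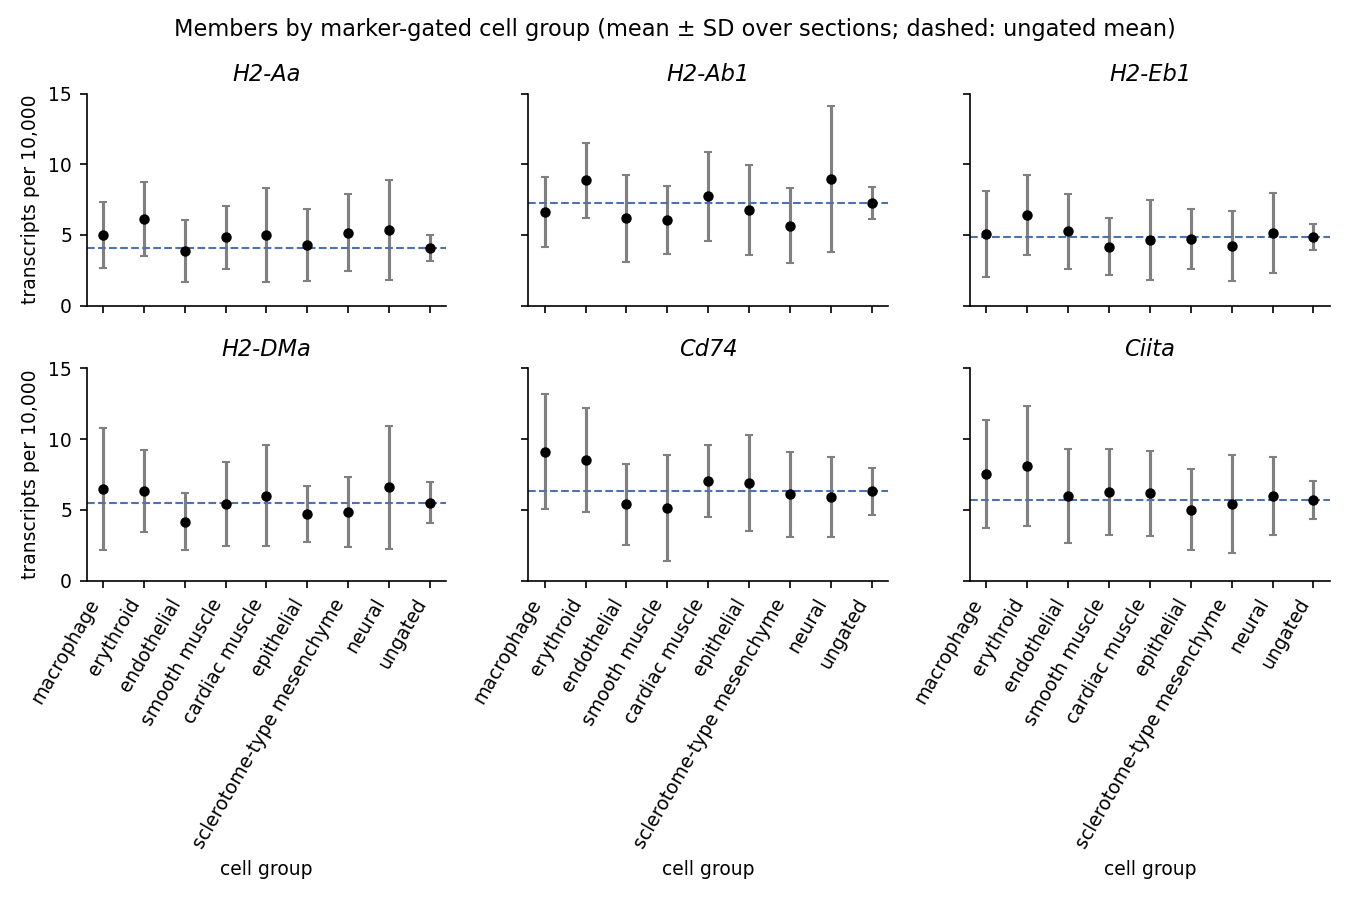
Transcripts of each member per 10,000 (y axis) in 8 marker-gated cell groups and in ungated cells (x axis), as the mean ± SD over sections with at least 10 cells, with the ungated mean dashed. The error bars of the groups overlap for every member.

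Macrophage-gated against ungated cells of the same sections, tested across 960 genes with edgeR, gave 74 called genes (7.71%), 19 of them higher (1.98%) and 55 lower (5.73%). Of the 4 members with a test, Cd74 rose, with a log2 fold change of 0.43 ± 0.13 (SE, adjusted p = 0.0222, higher in 15 of 21 sections), and no other member was called. Ciita had 0.36 ± 0.14 (adjusted p = 0.127), H2-Ab1 -0.24 ± 0.14 (adjusted p = 0.423) and H2-Eb1 -0.06 ± 0.16 (adjusted p = 0.919). H2-Aa had 0.06 ± 0.17 and H2-DMa 0.03 ± 0.16, with no test. The call for Cd74 was lost in 7 of 13 other settings. Its value was lowest without Csf1r, a gate marker on its own chromosome. With Csf1r left out of the gate, which left 594 gated cells, Cd74 had 0.16 ± 0.13 (adjusted p = 0.694). With each of the other 5 gate markers left out in turn, its value stayed between 0.35 and 0.43, with adjusted p from 0.0295 to 0.0750. Within the Knockout sections alone it was 0.54 (adjusted p = 0.0838) and within the Wildtype sections alone 0.35 (adjusted p = 0.554). Scaled by library size alone, the calls split into 45 higher and 29 lower, and Ciita was also called (0.46, adjusted p = 0.0308). Ciita was called as well with a gate of 2-fold (0.37, adjusted p = 0.0292) and without C1qa in the gate (0.52, adjusted p = 0.00841).

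**Figure D5:**
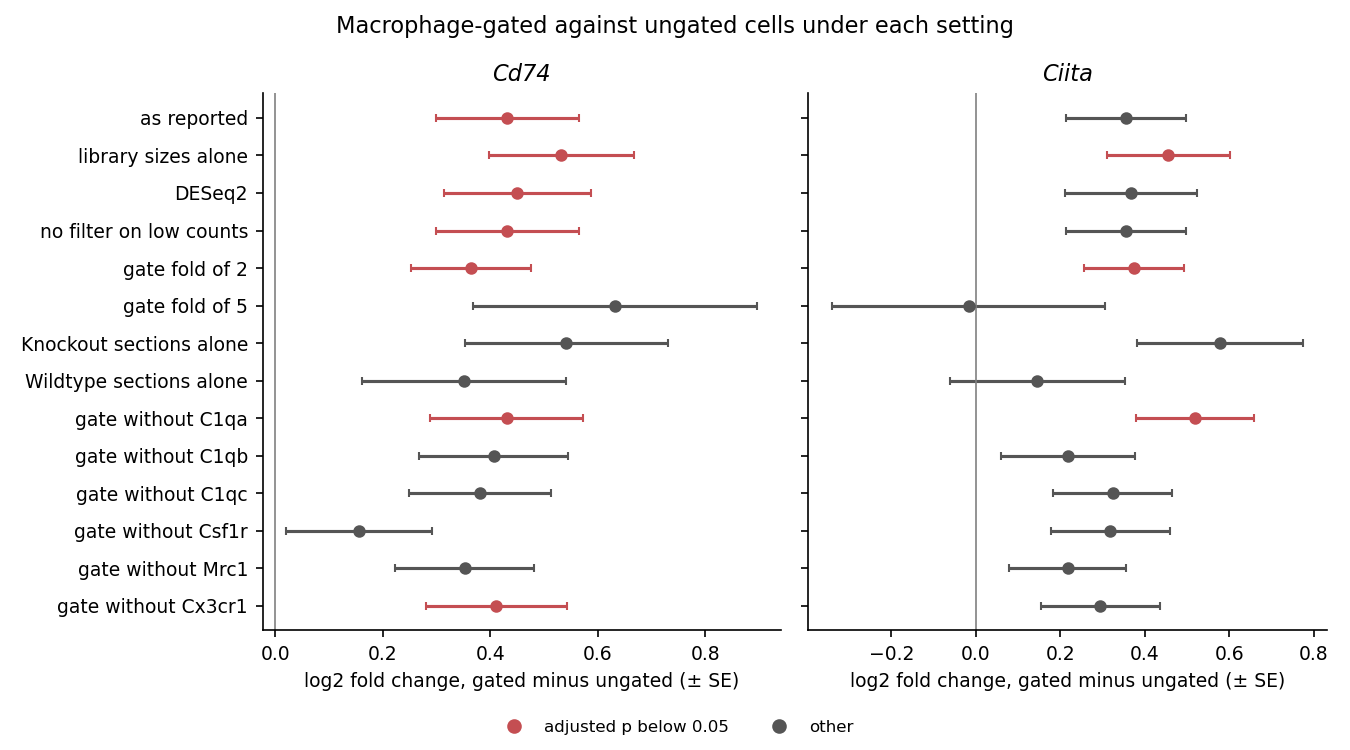
Log2 fold change of Cd74 and Ciita (x axis, macrophage-gated minus ungated cells, ± SE) as reported and under each other setting (y axis); red points have an adjusted p below 0.05. Cd74 is lowest, at 0.16, when Csf1r is left out of the gate.

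Endothelial-gated cells line the vessels, including the aorta from which blood stem cells emerge. Against ungated cells, 194 of 959 genes were called (20.2%), 119 higher (12.4%) and 75 lower (7.82%), with 89 and 111 when scaled by library size alone, and none of the 4 tested members was among them. H2-Ab1 had -0.24 ± 0.13 (adjusted p = 0.211), Cd74 -0.12 ± 0.13 (adjusted p = 0.646), Ciita 0.08 ± 0.14 (adjusted p = 0.768) and H2-Eb1 0.06 ± 0.14 (adjusted p = 0.851). H2-DMa had -0.35 ± 0.14 and H2-Aa -0.12 ± 0.16, with no test, and H2-DMa moved to -1.34 with a gate of 5-fold. In the Knockout sections alone H2-Ab1 was called (-0.53, adjusted p = 0.0196). The light chain of class I, B2m, rose by 0.67 ± 0.10 (adjusted p = 3.9e-09) in the same cells. It was the only 1 of 11 class I genes called, and their median was 0.009, against -0.002 over all genes. The interferon receptor kinase Jak1 rose by 0.41 and the receptor chain Ifngr1 by 0.32, and Ms4a1, the B cell antigen CD20, fell by 0.33. These were 2 of 16 regulators and costimulatory genes and 1 of 10 genes of other antigen-presenting cells.

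Erythroid-gated cells had higher relative counts of many genes. Of 958 genes, 443 were called (46.2%), 263 higher (27.5%) and 180 lower (18.8%). Ciita rose by 0.36 ± 0.11 (adjusted p = 0.00415, higher in 15 of 22 sections) and Cd74 by 0.30 ± 0.11 (adjusted p = 0.0182, 17 of 22 sections). H2-Eb1 had 0.17 ± 0.12 (adjusted p = 0.233) and H2-Ab1 0.14 ± 0.10 (adjusted p = 0.270), and H2-Aa had 0.36 ± 0.12 and H2-DMa 0.13 ± 0.12 with no test. The median of all genes was 0.08. The calls split into 192 and 196 with DESeq2 and into 450 and 126 when scaled by library size alone, where H2-Ab1 (0.29, adjusted p = 0.0120) and H2-Eb1 (0.33, adjusted p = 0.0145) were called too. Cd74 was not called with DESeq2 (0.24, adjusted p = 0.0910) or within either genotype, and neither gene was called with a gate of 2-fold (Cd74 adjusted p = 0.0505, Ciita 0.0597) or, for Ciita, in the Knockout sections alone (0.14, adjusted p = 0.616). Genes of antigen presentation outside the members also rose here: 3 of 4 other class II genes, 6 of 11 class I genes, led by H2-M3 (0.46) and Tap1 (0.38), and 7 of 10 genes of other antigen-presenting cells, among them the B cell gene Cd79a (0.43) and the homing receptor Ccr7 (0.44). Of the 16 regulators and costimulatory genes only 2 rose, beside 27.5% of all genes, and 1 fell, Jak1 (-0.46). The difference in the change between genotypes was tested in each of these 3 cell comparisons, and no tested member passed in any of them: the lowest adjusted p was 0.492 (H2-Ab1, endothelial-gated cells).

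Between genotypes, Ciita was lower in the sections labelled Knockout, and the other 3 tested members were not called. With TMM scaling, which holds most genes level, 125 of 998 genes were called (12.5%), 98 higher (9.82%) and 27 lower (2.71%) in the Knockout sections, and the median gene moved by -0.03. Ciita had rates from 3.34 to 5.68 (median 4.68) over the 13 Knockout sections and from 5.82 to 8.65 (median 6.65) over the 9 Wildtype sections. The ranges did not overlap, and Ciita fell by 0.28 ± 0.08 on the log2 scale (SE, adjusted p = 0.0108). Cd74 ranged from 2.01 to 6.47 (median 5.43) and from 6.48 to 9.45 (median 7.35), again without overlap but with a gap far below the SD, and had a log2 fold change of -0.24 ± 0.10 (adjusted p = 0.121). H2-DMa ranged from 1.83 to 5.478 and from 5.484 to 7.57, without overlap and again with a small gap, and had -0.20 ± 0.10. Knockout sections lay wholly below Wildtype sections in 38 of 998 genes (3.81%), and the rates are relative to totals in which 875 genes had a lower mean in the Knockout sections.

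The other 3 members overlapped. H2-Ab1 ranged from 5.26 to 7.34 (median 6.16) in Knockout and from 6.88 to 9.50 (median 7.52) in Wildtype sections, with a log2 fold change of -0.03 ± 0.06 (adjusted p = 0.799). H2-Eb1 ranged from 2.45 to 5.46 and from 4.15 to 6.07, with 0.01 ± 0.09 (adjusted p = 0.935). H2-Aa ranged from 2.12 to 4.92 and from 3.95 to 6.10, with -0.08 ± 0.10. In a summed section, fewer cells with a transcript and fewer transcripts per cell cannot be told apart. Scaled by library size alone, the median gene moved by -0.30 and the split of calls turned to 58 higher and 719 lower. All 6 members then had negative values, from -0.25 (H2-Eb1) to -0.55 (Ciita), and the 4 tested members were all called, near the shift of the median gene for H2-Ab1 and H2-Eb1. Relative to the median gene, Ciita stood at -0.25 with TMM, Cd74 at -0.21, H2-Ab1 at 0.01 and H2-Eb1 at 0.05. A digit in the names of the deposited counts, 1 or 2, was taken to mark the slide. In sections of digit 1 alone, Ciita had -0.38 (adjusted p = 0.0263, edgeR), and in those of digit 2 -0.18 (adjusted p = 0.316). With this digit as a random block in limma it had -0.28 (adjusted p = 0.0443).

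Other genes of the pathway were called between genotypes in 4 cases, beside the 12.5% called over all genes, so these counts are no result about the pathway. Of 4 other class II genes 1 was lower, H2-DMb1, the beta chain of H2-M, which fell by 0.26 ± 0.09 (adjusted p = 0.0489). Of 11 class I genes 1 was lower, H2-T23 (-0.27 ± 0.06, adjusted p = 0.0026), and 1 higher, B2m (0.25 ± 0.08, adjusted p = 0.0307). Of 16 regulators and costimulatory genes 1 was higher, Jak1 (0.28, adjusted p = 0.0449). The 10 genes of other antigen-presenting cells had a median of -0.07. Within macrophage-gated cells, 275 genes passed the filter on low counts, 23 were called between genotypes (8.36%), 18 higher (6.55%) and 5 lower (1.82%), with 15 and 12 when scaled by library size alone, and Cd74 was the 1 member that passed the filter, with -0.15 ± 0.27 (adjusted p = 0.777). For the other 5 members the genotypes could not be compared in macrophage-gated cells at this depth. In macrophage-gated against ungated cells, the list genes called were Il4ra (0.60), Itgax, an integrin of dendritic cells (0.52), Ifngr2 (0.38) and Jak1 (-0.51). Itgax was the only 1 of 10 genes of other antigen-presenting cells called, and 5 of the 10 were below 0. Their median was 0.04, against 0.01 over all genes. Of 16 regulators and costimulatory genes, 2 were higher and 1 lower, and 10 were below 0. Over all genes 1.98% were higher and 5.73% lower, so these counts are no result about the lists.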

How the data were processed

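CosMx was run on 22 sections, 13 labelled Knockout and 9 Wildtype. The authors deposited, per section, raw counts of transcripts per gene and segmented cell, not normalized; segmentation and assignment came before deposit. Members and gene lists were chosen with earlier results of these data known. Cells under 10 transcripts or 10 genes (5 of 37575) were left out, and none of 231 pairs of section tables was identical. Total counts ranged from 169027 to 887896 per section. Counts were summed per section, or per section and gated group, and tested with edgeR 4.0.16 (TMM, quasi-likelihood, Benjamini-Hochberg, threshold 0.05) in R 4.3.3, with section as a block between cell groups and gate markers left out. The fits were also run on simulated sections, drawn independently with a fixed spread. That run cannot speak to sections that share an embryo or to the measured spread. DESeq2 1.42.0 and limma 3.58.1 (voom) were alternatives. Expected co-detection used 10 strata of total count in each section. Named genes are the members, up to 6 called genes of the lists per comparison, the 3 highest partners per member with at least 20 cells expected, the genes next in rate, Nr4a1 and Nr4a2. Macrophage markers and further partners were named after their values were seen, and some list genes are not reported here. Slide digits were read from the names of the deposited counts and only stand in for slides.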

Additional observations from a re-analysis of the deposited data

Results flagged for a closer look

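The H2-Ab1 rate of Wildtype section 17, 9.50 transcripts per 10000, lay farther above the other 8 Wildtype sections than Dixon's limit at 95% allows (gap to the next section over the whole range, 0.587). About 1 in 20 groups would be singled out in this way by chance, and 12 ends of 6 groups, the Wildtype sections of each member, were examined. The 13 Knockout sections were not examined in this way, so outliers among them are not listed. Their lowest values include Cd74 at 2.01 and H2-DMa at 1.83, both in section 13. Section 17 held the fewest cells of all sections (814). It was also the highest Wildtype section for H2-Aa (6.10), Cd74 (9.45) and Ciita (8.65), all within the limit. The cause was not tested.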

How the results depend on the processing

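No paired analysis was possible because the genotypes share no section number in the labels, and the slide digits 1 and 2 each stand for several sections of a genotype. Median co-detection among the H2 members stayed between 1.22 and 1.27 under 7 alternatives, 4 of them chosen after seeing the data. Against 125 calls between genotypes, 777 were made with library sizes alone and 55 in sections of slide digit 1, and leaving out each section gave 104 to 161. In macrophage-gated cells 23 calls became 8 in sections of slide digit 1 and 5 with a gate of 5-fold, and 20 to 25 without each section. For macrophage-gated against ungated cells, 74 calls became 37 with a gate of 5-fold, 43 in Knockout and 10 in Wildtype sections alone, and 49 without C1qb in the gate, an alternative chosen after seeing the data. Endothelial calls fell from 194 to 110 with a gate of 5-fold and 74 in Wildtype sections alone. Erythroid calls fell from 443 to 258 in Knockout and 245 in Wildtype sections alone. The ratio to the dimmest 5% of genes, 2.14, became 3.31 with 1% and 1.81 with 10%.

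The following values changed sign, and none of them had been called as reported. Between genotypes H2-Ab1 was 0.0807 in sections of slide digit 2. H2-Eb1 was -0.25 with library sizes alone, where it was called (adjusted p = 0.0232), and -0.0021 with slide digit as a block. It was -0.10 in sections of slide digit 2 and ranged from -0.0218 to 0.0662 without each section. In macrophage-gated cells H2-Ab1 was 0.0372 with a gate of 2-fold, and Ciita was -0.0168 with 5-fold. H2-Eb1 there was 0.0417 with library sizes alone, 0.0409 with a gate of 2-fold, 0.10 in Wildtype sections, 0.28 without C1qb and 0.00041 without Csf1r. H2-Aa, which has no test, went from 0.06 to -0.34 without C1qb. It was also negative with gates of 2-fold (-0.02) and 5-fold (-0.06) and in Wildtype sections (-0.06). Without C1qa it was -0.12, without Csf1r -0.15, without Mrc1 -0.11 and without Cx3cr1 -0.10. H2-DMa, also untested, was -0.11 in Knockout sections, and negative without C1qb, C1qc (-0.07), Mrc1 (-0.05) or Cx3cr1. In erythroid-gated cells H2-DMa was -0.04 in Knockout sections. Between genotypes H2-Aa was 0.01 in sections of slide digit 1. In endothelial-gated cells H2-Ab1 was 0.0719 in Wildtype sections, and Ciita was -0.0457 with a gate of 5-fold and -0.14 in Knockout sections. H2-Eb1 there was -0.0065 with library sizes alone, -0.0216 with a gate of 2-fold, -0.11 with 5-fold and -0.0312 in Knockout sections. The cause of these changes was not tested. Counts of 31 to 636 per member and section limit the precision.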
